A study of Mus musculus with 4 samples.

Results

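The genes described here are 38 components of cellular antioxidant defense: the regulators *Nfe2l2* and *Keap1*, the heme and quinone enzymes, the enzymes that make and use glutathione, the peroxiredoxins and thioredoxins, the superoxide dismutases with catalase, the metallothioneins, 3 glutathione transferases and the ferritin subunits. They were chosen by name, and every probe of the array with one of these gene names was taken. They account for 38 of 29676 gene names and for 55 of 39429 probes on the array. 14 of the genes had more than 1 probe, and 24 had 1.

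The samples were astrocyte-enriched cultures (AECs), primary glial cultures from the cortex of newborn ICR mice in which all cultures had received PLX3397 (pexidartinib), an inhibitor of the receptor CSF1R on which microglia depend. The 2 untreated cultures were compared with 2 cultures kept under oxygen–glucose deprivation (OGD), that is, in medium without glucose and at very low oxygen, for 15 h. According to the methods, several pups of either sex went into a culture and each well came from a separate culture. The cultures still hold oligodendrocyte-lineage cells. No gene was deleted or added in either group. The comparison asks how AECs change their transcripts when oxygen and glucose are both withdrawn.

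As background, cells keep superoxide and peroxides low with enzymes that draw on glutathione and thioredoxin. The transcription factor NRF2, encoded by *Nfe2l2*, turns on many of these enzymes through the antioxidant response element when oxidants or electrophiles keep KEAP1 from marking it for degradation. Astrocytes are known as the main glutathione producers of the brain and supply its precursors to neurons.

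Each value is a one-color array signal, on the log2 scale and relative to the 75th percentile of its own array. That percentile lay at a signal of 2135 and 2164 in untreated cultures and 887 and 776 under OGD, a log2 difference of -1.37, while spiked-in control RNA differed by -0.085. Directions below are therefore relative to the bulk of the array, and scaling to the spike-in probes is given beside them. Replicate arrays correlated across probes at 0.998 (untreated) and 0.995 (OGD). According to the methods, the same amount of total RNA was labeled for each array. Signals are thus per amount of RNA and not per culture or cell, also under spike-in scaling. In cultures taken as a whole, fewer cells of a type and less of a transcript per cell cannot be told apart. 11 of 11 hypoxia-inducible genes listed as a check of the treatment rose, among them *Ankrd37* by 5.92 and *Adm* by 4.54 on the log2 scale, and 8 of them rose while 2 fell under spike-in scaling. The summed signal of 10 astrocyte markers, in units of the 75th percentile, was 168 and 149 in untreated cultures against 228 and 233 under OGD, that of 8 microglia markers 1.83 and 1.53 against 1.94 and 1.71, and that of 8 oligodendrocyte markers 10.3 and 10.5 against 12.2 and 12.7. 6 astrocyte markers rose and 1 fell, 3 microglia markers rose and 2 fell, and 3 oligodendrocyte markers rose and 2 fell, while under spike-in scaling none rose and 8, 6 and 7 fell. After quantile normalization 3 astrocyte markers were higher and 3 lower. With normexp background correction the log2 fold changes of the dim *Tmem119*, *Trem2* and *Sox10*, called lower here, were positive (0.18, 0.67 and 0.83). The summed signal of 6 NG2 glia markers was 41.1 and 34.2 against 57.9 and 59.6, most of it from *Ptprz1* and *Bcan*, with 3 higher and *Pdgfra* lower. That of 7 neuron markers was 31.0 and 29.0 against 31.0 and 34.1, with 3 higher and 2 lower. Of the lower ones, *Rbfox3* was at 0.90 with normexp. For 5 meningeal fibroblast markers it was 20.4 and 18.7 against 31.0 and 29.1, where *Ogn* rose by 1.29, *Pdgfrb* fell by 2.42 and the other 3 did not pass. For 3 endothelial markers it was 1.67 and 1.74 against 1.41 and 1.29, with 1 lower. Under spike-in scaling 6 NG2 glia, 6 neuron, 4 fibroblast and 3 endothelial markers fell, and 1 neuron marker, *Nefl*, rose. Microglial transcripts were still measured: *Aif1*, *Csf1r*, *Itgam*, *P2ry12*, *Tmem119* and *C1qb* were well above background on all 4 arrays, *Cx3cr1* on both untreated arrays and neither OGD array, and *Trem2* on all but 1 OGD array. *C1qa* was not tested because in neither group were both arrays well above background. The part of cell composition in the results below was not tested.

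The antioxidant genes held one large response, that of *Hmox1*, among many shifts of under 1 log2 unit. 25 of the 38 genes were higher after OGD and 2 were lower by limma with Benjamini–Hochberg adjustment (adjusted p under 0.05), and 11 did not pass. Across all 21009 genes tested, 65.0% were called (37.1% higher and 27.9% lower), so a call by itself sets no gene of the list apart. The groups did not overlap for 34 of the 38 genes, against 84.8% of all genes (48.5% higher and 36.2% lower). The median log2 fold change was 0.54 for the list and 0.16 for all genes. 2 of the 38 passed a 2-fold limit as well, *Hmox1* and *Gpx4*, both higher, compared with 27.7% of all genes past it (12.7% higher and 15.1% lower). None reached 10-fold by its brightest probe, which 1.27% of all genes did. Without *Hmox1*, the 24 genes that were higher lay between 0.35 (*Prdx3*) and 1.01 (*Gpx4*), that is, 1.27- to 2.01-fold. The probes were bright: 54 of the 55 were well above background on all 4 arrays, no spot was saturated, and the remaining probe, 1 of the 3 for *Txn2*, was not above background on any array.

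**Figure D1:**
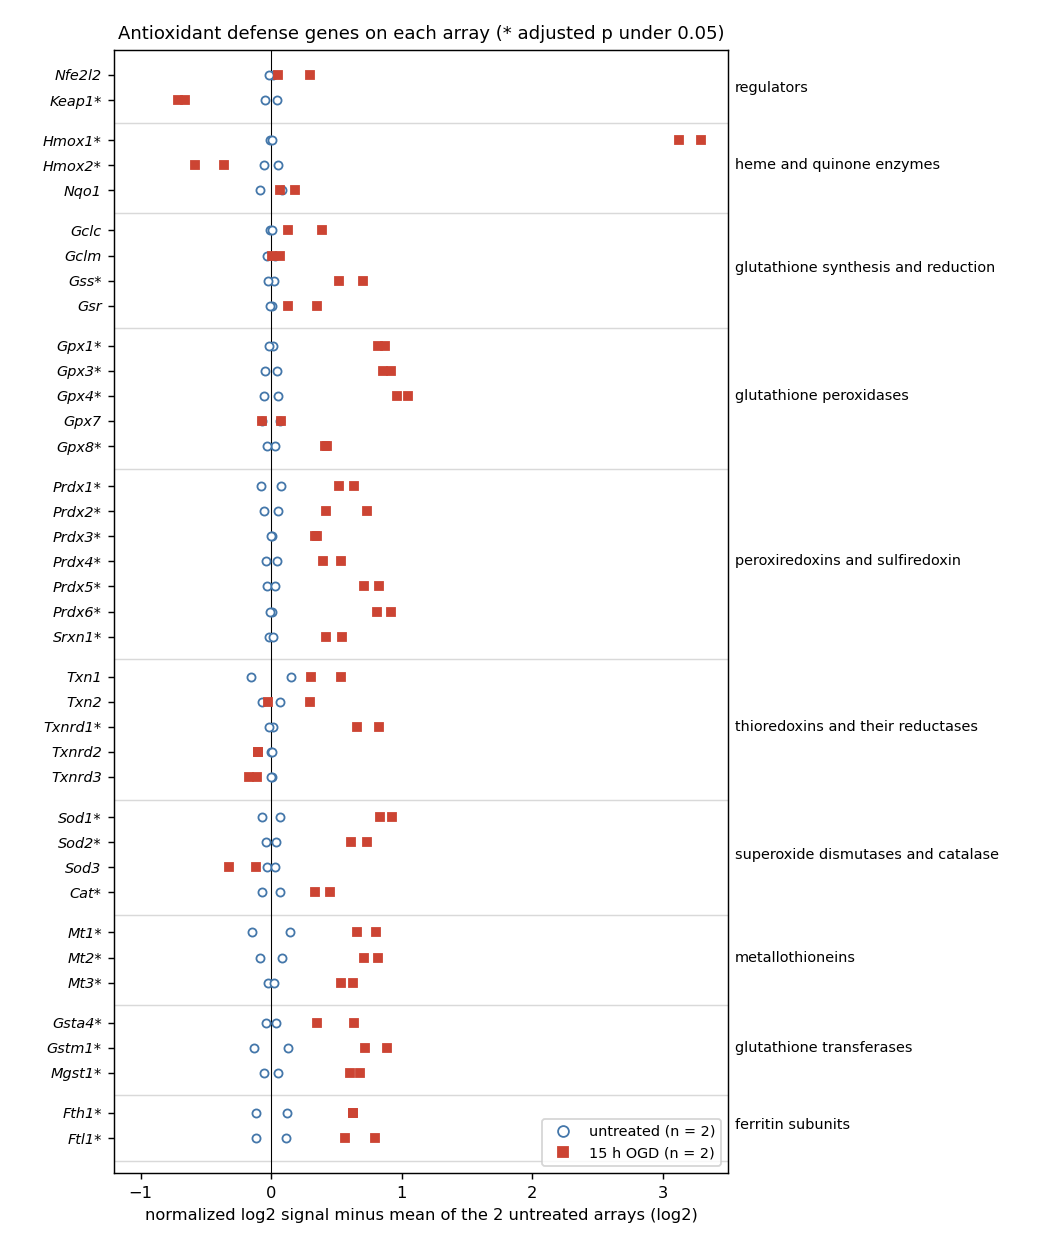
Each row is an antioxidant gene, by its brightest probe, and each point an array. The x axis is the normalized log2 signal minus the mean of the 2 untreated arrays, with open circles for untreated cultures and filled squares for 15 h OGD. Hmox1 stands alone at 3.21 on average, Keap1 and Hmox2 lie below 0, and most other genes lie between 0 and 1 on this scale. Under spike-in scaling all of them except Hmox1 lie below 0.

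The scale decides the direction for most of the list. Before any scaling, the processed signal of *Hmox1* was higher on both OGD arrays than on both untreated arrays, and that of the other 37 genes was lower. The like share of all genes was not counted before scaling. Under spike-in scaling 92.8% of all genes had a negative log2 fold change, so a lower signal sets few genes apart. With arrays scaled to the spike-in probes, 1 gene was higher (*Hmox1*, by 1.92 on the log2 scale) and 37 were lower, where 3.85% of all genes were higher and 83.4% lower. The list's median was then -0.75 and that of all genes -1.13. Quantile normalization left 4 genes higher (*Hmox1*, *Gpx3*, *Gss* and *Cat*) and 8 lower (*Keap1*, *Hmox2*, *Nfe2l2*, *Sod3*, *Txn2*, *Txnrd2*, *Gpx8* and *Fth1*), where 28.5% of all genes were higher and 31.2% lower, with a list median of -0.092 against -0.025 for all genes. With the 75th percentile taken over probes above background on all arrays, 21 were higher and 5 lower, against 30.2% and 32.6% of all genes. With normexp background correction 26 were higher and 3 lower, against 60.6% and 20.8% of all genes, and the list median of 0.46 lay below that of all genes, 0.51. In these 6 scalings, *Hmox1* rose and *Keap1* and *Hmox2* fell, and each passed the test every time.

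**Figure D2:**
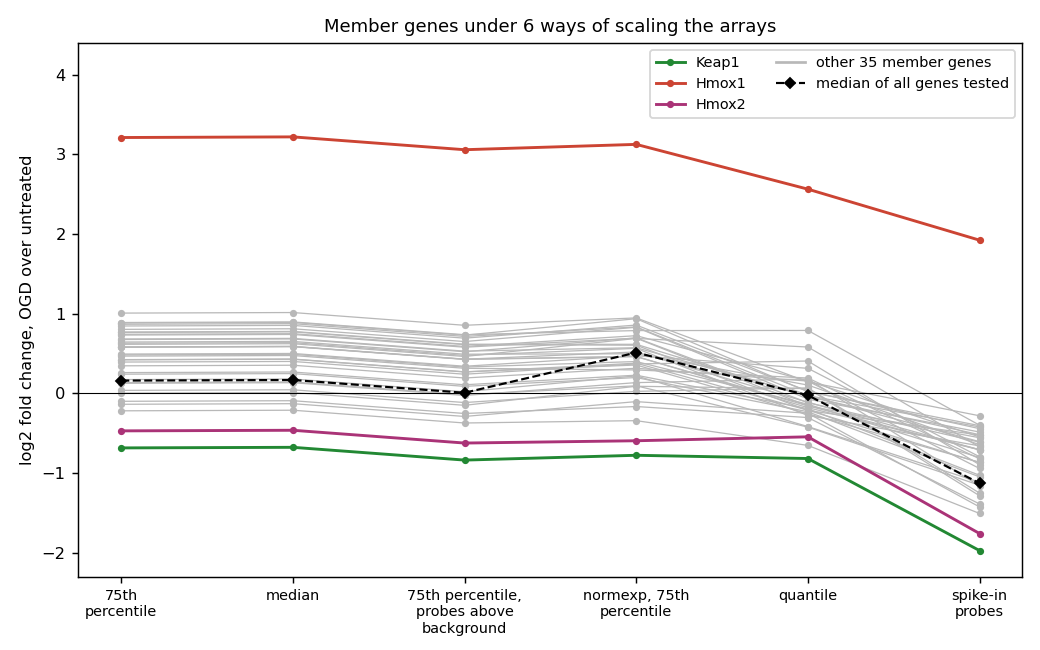
The y axis is the log2 fold change of OGD over untreated, and the x axis 6 ways of making the arrays comparable. Each line is an antioxidant gene, with Hmox1, Keap1 and Hmox2 in color, and the dashed line is the median of all genes tested. Hmox1 stays above 0 (1.92 under spike-in scaling) and Keap1 and Hmox2 below 0 in all 6, while most other lines cross 0 under quantile or spike-in scaling.

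The change also followed the signal range of the probe. Among all 514 genes whose mean normalized signal lay from 5 to 7 on the log2 scale, 99.4% had a positive log2 fold change, with a median of 0.86 and a 5th to 95th percentile range of 0.42 to 1.25. The 9 antioxidant genes in that range lay between 0.63 and 1.01, with a median of 0.80. From 4 to 5, the median was 0.67 for all 941 genes and 0.58 for 8 antioxidant genes with *Hmox1* set aside. From 2 to 4 it was 0.39 for 2944 genes and 0.24 for 9 antioxidant genes. From 0 to 2 it was 0.068 for 3813 genes and 0.35 for 7 antioxidant genes, and from -2 to 0 it was -0.10 for 3527 genes and 0.082 for 4 antioxidant genes. In the 3 upper ranges the antioxidant genes other than *Hmox1* thus had a median below that of all genes of like signal, and in both lower ranges above it. The part of signal range in the calls was not tested.

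**Figure D3:**
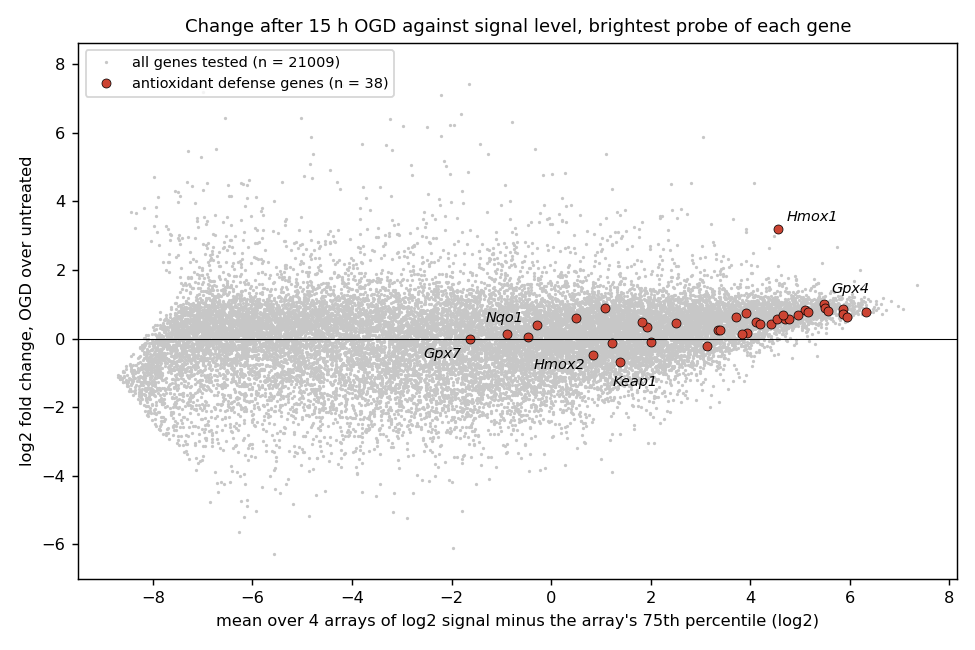
Each gray point is a gene by its brightest probe and each red point an antioxidant gene. The x axis is the mean over 4 arrays of the normalized log2 signal and the y axis the log2 fold change of OGD over untreated under 75th-percentile scaling. The cloud of all genes bends upward at the bright end, where 99.4% of the genes from 5 to 7 lie above 0, and the antioxidant genes follow it except for Hmox1 at 3.21. Under spike-in scaling the whole cloud shifts down and the antioxidant genes other than Hmox1 lie below 0.

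*Nfe2l2*, which encodes NRF2, had processed signals of 31297 and 31006 in untreated cultures and 15780.3 and 11646 under OGD. Relative to the 75th percentile these were 3.87 and 3.84 against 4.15 and 3.91, a log2 fold change of 0.17 (SE 0.12, adjusted p = 0.257). The OGD values lay above the untreated ones without passing the test, and the sign turned under quantile (-0.42) and spike-in scaling (-1.12). *Keap1*, the adaptor that marks NRF2 for degradation, had signals of 6806 and 7378 against 1850.4 and 1566. Its normalized values were 1.67 and 1.77 against 1.06 and 1.01, so both OGD arrays were below both untreated arrays. It fell by 0.68 on the log2 scale (SE 0.083, adjusted p = 0.00449), and under spike-in scaling it fell by 1.97. Without untreated replicate 2, the adjusted p for *Keap1* was 0.0508.

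NRF2 acts with small MAF proteins at the antioxidant response element, whose core reads TGACNNNGC. To show where that core stands next to these genes, the 300-base windows from 250 bases before to 50 bases after each annotated start were searched on both strands (RefSeq, GRCm38.p6). 32 of the 38 genes had a window, 42 windows in all. *Hmox1*, *Gsr*, *Gclc*, *Gsta4*, *Sod3* and *Prdx6* were not in the promoter table. The core was found in 8 of 42 windows (19.0%), against 12.4% of 32851 windows of all genes. The matching stretches are printed 5′ to 3′ on the strand that carries the core, with the core in capitals. They stand at *Nfe2l2* chr2:75704885-75704913, *Gclm* chr3:122245413-122245441, *Prdx1* chr4:116685456-116685484, *Srxn1* chr2:152105542-152105570, *Txnrd1* chr10:82859104-82859132, *Sod1* chr16:90220696-90220724, *Mt2* chr8:94172529-94172557 and *Mgst1* chr6:138140461-138140489.
Nfe2l2: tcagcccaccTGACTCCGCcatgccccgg
Gclm: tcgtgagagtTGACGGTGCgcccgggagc
Prdx1: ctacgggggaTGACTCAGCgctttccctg
Srxn1: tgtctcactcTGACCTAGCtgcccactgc
Txnrd1: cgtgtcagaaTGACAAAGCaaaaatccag
Sod1: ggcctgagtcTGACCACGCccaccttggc
Mt2: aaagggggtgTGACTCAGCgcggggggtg
Mgst1: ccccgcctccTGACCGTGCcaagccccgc
*Prdx1*, a peroxide-removing peroxiredoxin, and *Mt2*, a metallothionein, share the core TGACTCAGC. The 8 genes beside these cores had log2 fold changes from 0.037 (*Gclm*) to 0.88 (*Sod1*), and 6 of them were higher after OGD, *Nfe2l2* and *Gclm* being the exceptions. Of the whole list 25 of 38 were higher, and of all genes 37.1%. All 8 were lower under spike-in scaling, as were 37 of the 38 and 83.4% of all genes. A match describes these letters only and is no measured binding site.

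Of 11 partners and regulators of NRF2 outside the list, 8 rose and 1 fell, with a median of 0.51. The small MAF genes *Maff* and *Mafk* rose most, from 2.35 and 2.35 to 5.45 and 5.49 for *Maff* and from -0.32 and -0.21 to 2.74 and 2.95 for *Mafk*. These are log2 fold changes of 3.12 and 3.11, and they were also higher under spike-in scaling (1.83 and 1.82), where 2 of the 11 rose and 7 fell. *Bach2*, a repressor that shares these DNA elements, fell by 0.75 (-0.46 with normexp background correction). Its relative *Bach1* rose by 0.38 (adjusted p = 0.0166 by limma) and was at -0.90 under spike-in scaling. Of 15 further NRF2 targets, 5 rose and 4 fell, with a median of 0.16, equal to that of all genes. *Ugdh*, which makes UDP-glucuronate, rose by 1.31 and *Me1*, which makes NADPH, by 1.06 on the log2 scale. *Slc7a11*, the cystine importer that feeds glutathione synthesis, and *Abcc4*, an efflux pump, both fell by 1.36. With normexp background correction *Slc7a11* was at -0.029 and *Abcc4* at -1.30. Under spike-in scaling 13 of the 15 fell and none rose. After quantile normalization 2 were higher and 7 lower, with a median of -0.29 against -0.025 for all genes.

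*Hmox1* encodes the inducible heme oxygenase, which breaks heme down to biliverdin, iron and carbon monoxide. Its brightest probe (mm9, chr8:77624207-77624266) had processed signals of 16282 and 16756 in untreated cultures and 59399 and 58632 under OGD. Relative to the 75th percentile these were 2.93 and 2.95 against 6.07 and 6.24, so the OGD arrays stood far above the untreated ones. The log2 fold change was 3.21 (SE 0.097, adjusted p = 0.000719), a 9.25-fold increase and rank 165 of 21009 genes. The second probe (chr8:77620797-77620856) went from -0.80 and -0.52 to 2.88 and 3.19, a log2 fold change of 3.69. *Hmox2* encodes the constitutive heme oxygenase, and its brightest probe went from 1.03 and 1.13 to 0.50 and 0.72. It fell by 0.47 (SE 0.12, adjusted p = 0.0279), and its second probe fell by 0.45. The call for *Hmox2* was lost without untreated replicate 1 (adjusted p = 0.102) or untreated replicate 2 (adjusted p = 0.155). The change of *Hmox1* exceeded that of *Hmox2* by 3.68 (95% interval 3.45 to 3.91, adjusted p = 0.000717), and by 3.11 after quantile normalization. A difference between probes of the same arrays does not change with an array's scale factor. The pairs of related genes compared here and below were picked after their values were seen. Their intervals and p-values therefore describe a gap already seen and are no independent test of it.

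*Nqo1*, a quinone reductase and a standard NRF2 target, had normalized values of -0.86 and -1.02 in untreated cultures and -0.87 and -0.76 under OGD. The groups overlapped, and the log2 fold change was 0.13 (adjusted p = 0.339). The change of *Hmox1* was larger than that of *Nqo1* by 3.08 on the log2 scale (2.38 after quantile normalization), a difference given here as a value without a test.

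Glutathione is built in 2 steps, by glutamate–cysteine ligase (catalytic subunit *Gclc*, modifier subunit *Gclm*) and glutathione synthetase (*Gss*), and is regenerated by glutathione reductase (*Gsr*). Of these 4 genes 1 rose and 3 did not pass. *Gss* rose from 0.22 and 0.18 to 0.72 and 0.91, a log2 fold change of 0.62 (adjusted p = 0.00944). It was also higher after quantile normalization, but lower by 0.67 under spike-in scaling, and it did not pass without untreated replicate 1 (adjusted p = 0.0639) or 2 (adjusted p = 0.0762) or by the methods' t-test (adjusted p = 0.0511). *Gclc*, the rate-limiting subunit, was at 0.26 (adjusted p = 0.13), *Gclm* at 0.037 (adjusted p = 0.702) and *Gsr* at 0.24 (adjusted p = 0.123), and both probes of *Gsr* gave 0.24. *Gclc* and *Gclm* differed in change by 0.22 (95% interval -0.08 to 0.53, adjusted p = 0.143), which leaves room for a difference of either sign.

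Among 30 other enzymes of glutathione use and breakdown, 16 rose and 2 fell, with a median of 0.38 on the same scale. *Chac1*, which degrades glutathione, rose by 4.51 on the log2 scale, from 0.20 and 0.092 to 4.66 and 4.66, more than any gene of the 38. *Gsta2*, a transferase, rose by 1.33. *Gsta3* fell by 0.83 and *Mgst2* by 0.40, but with normexp they were at -0.26 and 0.0042. Under spike-in scaling *Chac1* was the 1 gene of this group that rose, by 3.23, and 26 fell. After quantile normalization 10 were higher and 4 lower, with a median of 0.16.

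The glutathione peroxidases reduce hydrogen peroxide and lipid peroxides. Of 5 genes, 4 rose and *Gpx7* did not pass. *Gpx4*, which removes lipid peroxides from membranes and restrains ferroptosis, had signals of 69394 and 65531 against 54216 and 50479. Relative to the 75th percentile these were 5.02 and 4.92 against 5.93 and 6.02, with no overlap of the groups. The log2 fold change of 1.01 (SE 0.088, adjusted p = 0.0022) was the largest after *Hmox1*, yet the value was 0.14 after quantile normalization and -0.28 under spike-in scaling. *Gpx3*, the secreted form, was at 0.89 and stayed higher after quantile normalization, while it was lower by 0.40 under spike-in scaling. *Gpx1*, the abundant cytosolic form, was at 0.85 and *Gpx8*, a form of the endoplasmic reticulum, at 0.42. Under spike-in scaling both were lower, and quantile normalization put *Gpx1* at 0.028 and *Gpx8* at -0.26. *Gpx7*, also of the endoplasmic reticulum, was at 0.0027 with overlapping groups (adjusted p = 0.983). *Gpx4* exceeded *Gpx7* by 1.00 (95% interval 0.69 to 1.32, adjusted p = 0.00371), but by 0.084 after quantile normalization, and it exceeded *Gpx1* by 0.16 (95% interval -0.10 to 0.42, adjusted p = 0.197).

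All 7 peroxiredoxin and sulfiredoxin genes rose on this scale. Most peroxiredoxins reduce peroxides with thioredoxin as donor, and sulfiredoxin (*Srxn1*) restores some of them once overoxidized. The log2 fold changes ran from 0.35 for *Prdx3*, the mitochondrial form, over 0.47 (*Prdx4*), 0.48 (*Srxn1*), 0.58 (*Prdx1*), 0.58 (*Prdx2*) and 0.77 (*Prdx5*) to 0.87 for *Prdx6*. Under spike-in scaling all 7 were lower, and after quantile normalization 5 had a negative value and none was called. The *Prdx3* probe is spotted 10 times on each array, and its spots had an SD of 0.030 to 0.061 on the log2 scale within an array. That is spotting error only and holds no variation between cultures. The spots of the *Gsta4* probe, also 10, spread more, from 0.052 to 0.33.

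Of the 5 thioredoxin and reductase genes, *Txnrd1* passed on the 75th-percentile scale and 4 did not. It encodes the cytosolic thioredoxin reductase, and its normalized values went from 3.56 and 3.52 to 4.20 and 4.37, a log2 fold change of 0.74 (SE 0.096, adjusted p = 0.00515). *Txn1*, the cytosolic thioredoxin, was at 0.42 (adjusted p = 0.0822). *Txn2*, the mitochondrial thioredoxin, was at 0.14 (adjusted p = 0.453) by its brightest probe and at 0.60 by a dimmer one. *Txnrd2*, the mitochondrial reductase, was at -0.10 (adjusted p = 0.296) by its brightest probe, but a far dimmer probe rose by 0.97. *Txnrd3* was at -0.14 (adjusted p = 0.189). With the 75th percentile over probes above background *Txnrd2* (-0.25) and *Txnrd3* (-0.29) were called lower, and with normexp *Txn1* was called higher (adjusted p = 0.0409). *Txnrd1* changed more than *Txnrd2*, by 0.84 (95% interval 0.57 to 1.11, adjusted p = 0.00393), and more than *Txnrd3*, by 0.88 (adjusted p = 0.0047), and both differences passed after quantile normalization (0.46 and 0.41). By itself, *Txnrd1* did not pass after quantile normalization (0.16, adjusted p = 0.255), while *Txnrd2* was lower (-0.30, adjusted p = 0.0319). *Txn1* and *Txn2* differed by 0.29 (95% interval -0.0015 to 0.57, adjusted p = 0.0729). Under spike-in scaling all 5 were lower, *Txnrd1* by 0.55.

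10 further thioredoxin-related and methionine sulfoxide reductase genes gave 3 higher and 2 lower, with a median of 0.25. *Txnip*, which binds and inhibits thioredoxin, fell from 1.06 and 1.09 to -5.11 and -4.96, a log2 fold change of -6.11 (-4.57 with normexp). *Msrb2*, a mitochondrial methionine sulfoxide reductase, fell by 1.32, while *Txndc17* rose by 0.56 and *Msrb1* by 0.44, both with the opposite sign after quantile normalization (-0.18 and -0.20). All 10 were lower under spike-in scaling. After quantile normalization 1 was higher and 2 lower, with a median of -0.19.

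Superoxide dismutases turn superoxide into hydrogen peroxide, and catalase (*Cat*) breaks that down. *Sod1*, the cytosolic copper–zinc enzyme, went from 5.13 and 5.00 to 5.90 and 5.99 (log2 fold change 0.88, adjusted p = 0.00324). *Sod2*, the mitochondrial manganese enzyme, went from 4.67 and 4.59 to 5.24 and 5.36 (0.68, adjusted p = 0.00563). *Sod3*, the secreted enzyme, went from 3.20 and 3.27 to 3.12 and 2.91 (-0.22, adjusted p = 0.144). *Sod1* exceeded *Sod3* by 1.1 (95% interval 0.69 to 1.52, adjusted p = 0.00553) and *Sod2* exceeded *Sod3* by 0.89 (0.48 to 1.31, adjusted p = 0.00957), and both differences passed after quantile normalization (0.67 and 0.54). These pairs, too, were picked after their values were seen. In the signal ranges of *Sod1* and *Sod3* the medians of all genes were 0.86 and 0.39. By themselves, *Sod1* (0.020) and *Sod2* (-0.12) did not pass after quantile normalization and *Sod3* was lower (-0.65). *Sod3* was also called lower with normexp (-0.34) and with the 75th percentile over probes above background (-0.37). *Sod1* and *Sod2* differed by 0.21 (-0.01 to 0.42, adjusted p = 0.0807). *Cat* rose by 0.39 (adjusted p = 0.0286), but its second probe, at 0.20, did not pass. Under spike-in scaling all 4 genes were lower.

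The metallothioneins are small cysteine-rich proteins that bind zinc and copper and scavenge radicals. All 3 rose on the 75th-percentile scale, while all were lower under spike-in scaling and below 0 without a call after quantile normalization. *Mt1* had signals of 107273 and 88682 in untreated cultures and 63535 and 61531 under OGD. Relative to the 75th percentile these were 5.65 and 5.36 against 6.16 and 6.31, a log2 fold change of 0.73 (SE 0.14, adjusted p = 0.0141). A dimmer *Mt1* probe had overlapping groups and was at -0.45 (adjusted p = 0.403), and *Mt1* did not pass without untreated replicate 2 (adjusted p = 0.0695). *Mt2* had signals of 138922 and 125394 against 89264 and 83936. Its normalized values were 6.02 and 5.86 against 6.65 and 6.76, a log2 fold change of 0.76 (SE 0.10, adjusted p = 0.00562). *Mt3*, the form most known from the brain, had signals of 47090.4 and 49432 against 28905 and 26892. Its normalized values were 4.46 and 4.51 against 5.03 and 5.11, a log2 fold change of 0.58 (SE 0.082, adjusted p = 0.00643), which did not pass without untreated replicate 1 (adjusted p = 0.0639) or 2 (adjusted p = 0.0576). No difference between the 3 passed the test. *Mt1* and *Mt2* differed by -0.03 (95% interval -0.28 to 0.22), *Mt1* and *Mt3* by 0.15 (-0.26 to 0.56) and *Mt2* and *Mt3* by 0.18 (-0.12 to 0.49), with adjusted p from 0.208 to 0.761.

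The 3 genes lie side by side on chromosome 8, and their promoters are shown because metallothioneins are switched on by metal through MTF1, which binds the metal response element. Each sequence runs from 250 bases before to 30 bases after the annotated start (RefSeq, GRCm38.p6, plus strand), at *Mt1* chr8:94178839-94179118, *Mt2* chr8:94172368-94172647 and *Mt3* chr8:94152357-94152636. Capitals mark the core of the element, TGCGCNC or TGCACNC, on either strand.
Mt1: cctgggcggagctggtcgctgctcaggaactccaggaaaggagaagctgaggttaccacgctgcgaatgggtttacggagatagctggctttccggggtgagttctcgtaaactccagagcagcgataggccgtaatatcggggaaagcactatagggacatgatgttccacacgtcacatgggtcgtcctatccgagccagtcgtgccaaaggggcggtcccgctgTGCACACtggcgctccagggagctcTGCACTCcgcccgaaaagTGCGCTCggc
Mt2: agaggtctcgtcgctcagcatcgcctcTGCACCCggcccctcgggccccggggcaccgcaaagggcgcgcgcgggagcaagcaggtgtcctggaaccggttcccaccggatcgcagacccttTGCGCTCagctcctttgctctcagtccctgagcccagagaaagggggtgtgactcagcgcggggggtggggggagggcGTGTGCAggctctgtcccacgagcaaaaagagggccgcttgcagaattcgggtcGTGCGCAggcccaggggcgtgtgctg
Mt3: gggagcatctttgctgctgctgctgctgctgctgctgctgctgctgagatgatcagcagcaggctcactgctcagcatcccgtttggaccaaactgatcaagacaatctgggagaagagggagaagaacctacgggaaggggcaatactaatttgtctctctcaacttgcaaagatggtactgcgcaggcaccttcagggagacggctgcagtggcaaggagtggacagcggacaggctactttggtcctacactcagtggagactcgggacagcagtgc
The printed stretch held 3 cores for *Mt1*, 4 for *Mt2* and none for *Mt3*, whose window holds 1 core that starts at base 28 after the start and runs past the printed end. Over windows of 300 bases, TGCGCNC stood in 8 of 42 windows of antioxidant genes (19.0%) against 15.4% of all windows, and TGCACNC in 5 of 42 (11.9%) against 12.6%. The cores bound by hypoxia-inducible factors were searched as well. ACGTG stood in 8 of 42 windows (19.0%) against 19.6%, and GCGTG in 25 of 42 (59.5%) against 32.4%, in windows whose median number of CG pairs was 18.5 for the antioxidant genes and 7.0 for all genes.

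Of 20 zinc and copper genes tested around the metallothioneins, 9 rose, 3 fell and 8 did not pass, with a median of 0.31. *Mtf1*, which encodes the factor at these elements, fell from 0.34 and 0.34 to -1.53 and -1.53, a log2 fold change of -1.87. *Slc30a10*, a member of the zinc transporter family known as a manganese exporter, was at least 5.71-fold lower, since neither OGD array was well above background (adjusted p = 0.00261), a bound set by the lowest signal that counted as well above background on those arrays. With normexp its log2 fold change was -0.14. *Slc30a4* rose by 1.5 and the zinc importer *Slc39a14* by 1.23. Under spike-in scaling none of the 20 rose and 17 fell. After quantile normalization 5 were higher and 6 lower, with a median of -0.25.

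The glutathione transferases join glutathione to electrophiles, and all 3 members rose on this scale while falling under spike-in scaling. After quantile normalization none of them passed, with *Gstm1* at -0.072, *Mgst1* at 0.10 and *Gsta4* at 0.31. *Gstm1* was at 0.80 by its brightest probe and at 0.63 by the other. The file places the brightest probe on chromosome 5 and the other on chromosome 3, and Gstm genes are near-identical copies, so the *Gstm1* value may hold signal of relatives. *Mgst1*, a membrane-bound form that also reduces lipid peroxides, was at 0.64, and its second probe, at 0.54, did not pass (adjusted p = 0.0896). *Gsta4*, which clears the lipid peroxidation product 4-hydroxynonenal, was at 0.49 (adjusted p = 0.0342), and did not pass with the 75th percentile over probes above background (adjusted p = 0.0796).

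The ferritin subunits store iron in a form that cannot feed radical chemistry. *Fth1*, the heavy chain, rose by 0.63 (adjusted p = 0.0121) and *Ftl1*, the light chain, by 0.68 (adjusted p = 0.0169), with 1.03 by a second *Ftl1* probe. They differed by -0.05 (95% interval -0.36 to 0.25, adjusted p = 0.691). Under spike-in scaling *Fth1* was lower by 0.66 and *Ftl1* by 0.61, and after quantile normalization *Fth1* was lower by 0.28.

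Iron and heme handling genes outside the list gave 5 higher and 4 lower of 15, with a median of -0.04. The iron exporter *Slc40a1* fell by 3.49 and the iron importer *Slc11a2* fell by 3.10 on the log2 scale, with -1.12 and -2.24 under normexp. *Ncoa4*, the receptor that delivers ferritin to lysosomes, rose by 1.03, and *Cp*, the ferroxidase ceruloplasmin, by 0.90. Under spike-in scaling none rose and 14 fell. Some of the Gpx and Txnrd enzymes are themselves selenoproteins. Of 15 genes for other selenoproteins and for selenocysteine synthesis, 10 rose and 4 fell, with a median of 0.71. *Sepsecs* rose by 1.12 and *Selenok* by 1.1, and *Sephs2* fell by 1.67 and *Pstk* by 1.29, both of which act in selenocysteine synthesis. With normexp *Sephs2* was at 0.16 and *Pstk* at -1.25. Under spike-in scaling none rose and 12 fell. After quantile normalization 4 of these 15 were higher and 4 lower, with a median of 0.25. Of 8 enzymes that make reactive oxygen or nitric oxide, 3 rose and 2 fell, with a median of 0.16. The monoamine oxidases *Maob* and *Maoa* rose by 1.04 and 0.74, and *Nox4* fell by 1.82 and *Xdh* by 0.50, but with normexp *Xdh* was at 0.75. Under spike-in scaling none rose and 7 fell.

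**Figure D4:**
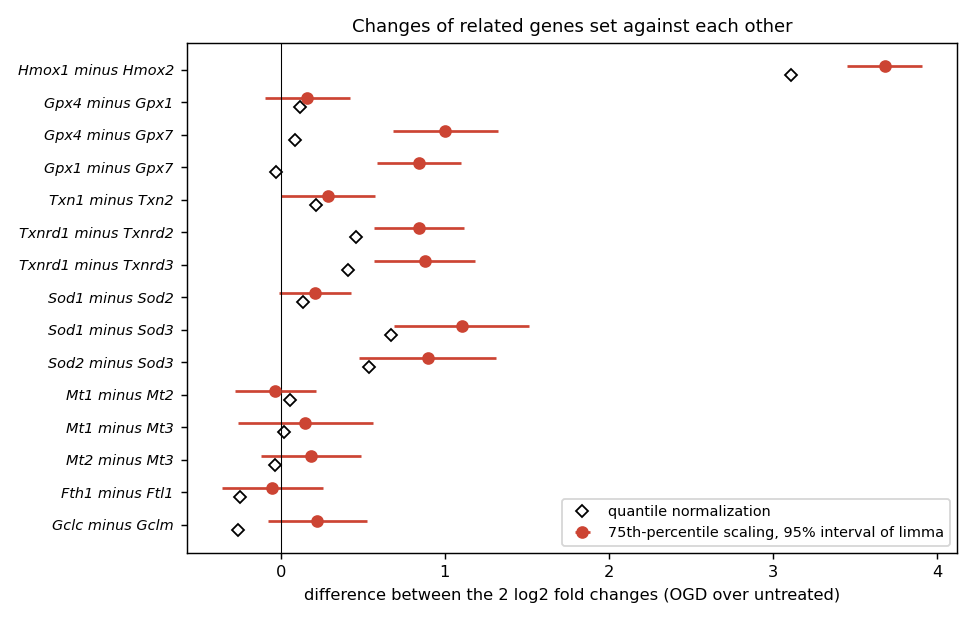
Each row sets the log2 fold change of 1 gene against that of a related one. The x axis is the difference between both log2 fold changes, filled points with 95% intervals from limma under 75th-percentile scaling and open diamonds under quantile normalization. The intervals of Hmox1 minus Hmox2 (3.68), of Txnrd1 minus Txnrd2 and Txnrd3, and of Sod1 and Sod2 minus Sod3 stay off 0 with the diamonds on the same side, while Gpx4 and Gpx1 minus Gpx7 are near 0 after quantile normalization.

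The 15 pairs in this plot were picked after their values were seen, and their p-values were adjusted together with all probes.

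Where a gene had more than 1 probe, the probes mostly gave like values. The 4 probes of *Prdx6* ran from 0.36 to 0.87, and 2 each of *Prdx1*, *Prdx4* and *Prdx5* from 0.40 to 0.77. *Txnrd2* and *Mt1* had probes of opposite sign, and *Txn2* passed by a dimmer probe but not by its brightest. *Cat*, *Mgst1*, *Prdx4* and *Prdx6* had a further probe that did not pass beside one that did. The position of a probe in exon or untranslated region is not analysed here.

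**Figure D5:**
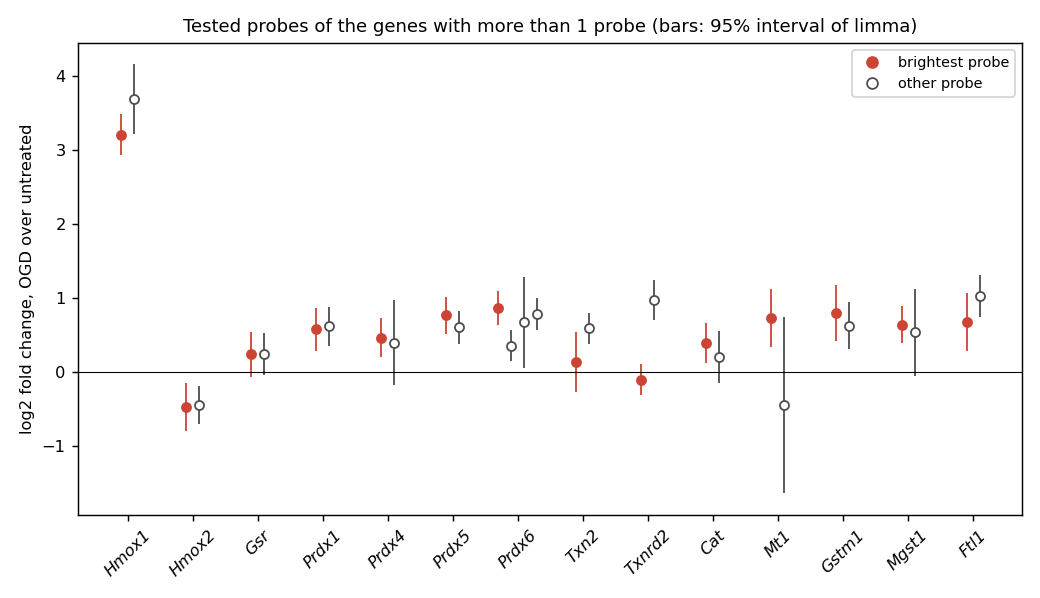
The x axis lists the 14 genes with more than 1 probe and the y axis is the log2 fold change of OGD over untreated under 75th-percentile scaling. Filled points are the brightest probe, open points the others, and bars the 95% interval from limma. Both Hmox1 probes (3.21 and 3.69) stand apart, and the open points of Txnrd2 (0.97) and Mt1 (-0.45) leave their brightest probe. Under spike-in scaling the brightest probes other than those of Hmox1 lie below 0.

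With 2 arrays a group, an exact permutation test could not go below p = 0.333. The limma calls rest on each probe's own spread together with a spread shared across probes. The methods' t-test, which shares none, called 15 of the 38 genes higher and 2 lower (5410 and 4157 of all genes). The count of 25 higher genes fell to 14 without untreated replicate 1 and to 9 without untreated replicate 2, while *Hmox1* passed in each case. Over all 21009 genes, the count of higher genes fell in the same fits from 7797 to 4869 and 4147. *Hmox2*, *Gss*, *Gpx8*, *Prdx1*, *Prdx2*, *Prdx3*, *Prdx4*, *Srxn1*, *Cat*, *Mt3* and *Gsta4* lost their call in both cases. *Mgst1* lost it without untreated replicate 1, and *Keap1*, *Txnrd1*, *Sod2*, *Mt1*, *Gstm1*, *Fth1* and *Ftl1* without untreated replicate 2.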

How the data were processed

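Gene expression was measured in 2 untreated AEC samples and 2 samples after 15 h OGD on one-color mouse arrays. Per the labels, total RNA was amplified, labeled with Cy3 and scanned, and the images were processed with Agilent Feature Extraction 11.5.1.1 (the methods name another release). Each deposited file holds the spot intensity after the authors' software had subtracted background, without normalization between arrays. The authors' table of the series holds the same intensity (largest difference 0). Their methods state 75th-percentile scaling, a t-test with Benjamini–Hochberg adjustment and a 10-fold limit. All arrays share a slide and a scan, so no batch could be compared.

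From the deposited intensity, log2 was taken. Control and outlier spots were left out, spots of a probe were averaged, and each array's 75th percentile was subtracted. A probe entered the test if it had a value on every array and if at least 0.5 of its spots were well above background on each array of either group (28163 probes), and limma 3.58.1 in R 4.3.3 was used. P-values were adjusted over all of them. A gene was called by its brightest probe. Python 3.11.15 with pandas 2.3.3, numpy 2.4.6 and, for plots, matplotlib 3.10.9 summarized the fits. The fit was tested on simulated data. Arrays have no read depth, and their number and signal over background limit the precision.

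Other settings tried were the methods' t-test, limma with trend and robust prior, a replicate block, normexp (offset 50), quantile, median, spike-in and above-background scaling, other filters and probe rules, fold limits of 2 and 10, and leaving out each array. Marker lists and pathway lists were counted without a set test. The members, lists and pairs were chosen with earlier results of these data known. All 38 genes are named, and every array is given for those called at a log2 fold change of at least 1, for *Nfe2l2*, *Keap1* and the metallothioneins. From each pathway list the 2 called genes with the largest rise and the 2 with the largest fall are named, and *Bach1* is given beside *Bach2*. 50 of 55 probe accessions were in the RefSeq table, all with the same symbol. Probe positions are on mm9 and promoters on GRCm38.p6, and no position was converted.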

Additional observations from a re-analysis of the deposited data

How the results depend on the processing

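Counts of 25 higher and 2 lower genes (7797 and 5855 of all genes) depended on the scaling, the fold limit and the arrays used. They became 1 and 37 under spike-in scaling (809 and 17519 of all genes) and 4 and 8 under quantile normalization. 5 were lower with the 75th percentile over probes above background, and normexp gave 12730 of all genes higher. Of all called genes, 57.1% were higher, against 74.4% with normexp, 47.7% with quantile normalization, 48.0% with probes above background, 67.1% without a filter and 4.41% with spike-in scaling. Median log2 fold changes of all genes shifted by 0.35 with normexp, -0.18 with quantile normalization, -0.15 with probes above background and -1.29 with spike-in scaling. Without a filter on dim probes 1 gene was lower. The methods' t-test called 15 higher and 2 lower, the latter being *Keap1* and *Txnrd2* (5410 and 4157 of all genes). Under it *Hmox2*, *Gss*, *Prdx1*, *Prdx2*, *Prdx4*, *Cat*, *Mt1*, *Gsta4*, *Gstm1*, *Fth1* and *Ftl1* no longer passed. Past 2-fold, 2 were higher and 0 lower (2664 and 3162 of all genes), and past 10-fold 0 and 0 (149 and 118). Leaving out 1 array gave 9 to 27 higher and 0 to 3 lower (4147 to 7964 and 3711 to 6199 of all genes). The lowest counts came without untreated replicate 2 (9 and 0) and without untreated replicate 1 (14 and 1), where the lone array was assumed to vary like the OGD pair.

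The sign turned under spike-in scaling for *Nfe2l2* -1.12, *Nqo1* -1.16, *Gclc* -1.03, *Gclm* -1.25, *Gss* -0.67, *Gsr* -1.05, *Gpx1* -0.44, *Gpx3* -0.40, *Gpx4* -0.28, *Gpx7* -1.29, *Gpx8* -0.86, *Prdx1* -0.71, *Prdx2* -0.71, *Prdx3* -0.94, *Prdx4* -0.82, *Prdx5* -0.52, *Prdx6* -0.42, *Srxn1* -0.81, *Txn1* -0.87, *Txn2* -1.15, *Txnrd1* -0.55, *Sod1* -0.41, *Sod2* -0.61, *Cat* -0.90, *Mt1* -0.56, *Mt2* -0.52, *Mt3* -0.71, *Gsta4* -0.80, *Gstm1* -0.49, *Mgst1* -0.64, *Fth1* -0.66 and *Ftl1* -0.61. Under quantile normalization it turned for *Nfe2l2* -0.42, *Gclc* -0.19, *Gsr* -0.23, *Gpx8* -0.26, *Prdx1* -0.16, *Prdx2* -0.11, *Prdx5* -0.041, *Prdx6* -0.028, *Srxn1* -0.14, *Txn1* -0.21, *Txn2* -0.42, *Sod2* -0.12, *Mt1* -0.16, *Mt2* -0.22, *Mt3* -0.18, *Gstm1* -0.072, *Fth1* -0.28 and *Ftl1* -0.028. It turned with probes above background for *Nqo1* -0.027, *Gclm* -0.12, *Gpx7* -0.15 and *Txn2* -0.017, with the mean over probes for *Txnrd2* 0.44, with outlier spots kept for *Gpx7* -0.0057, and with 1 array left out for *Gpx7*, from -0.070 to 0.076, and *Txn2*, from -0.025 to 0.30. The cause was not tested. By its brightest probe *Hmox1* passed at adjusted p under 0.05 in every alternative run and missed the 10-fold limit, which its second probe, at 12.9-fold, exceeded.

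With the replicate number as a block, 23 genes were higher and 2 lower (7227 and 5554 of all genes). *Prdx3*, *Cat* and *Gsta4* no longer passed and *Txn1* did. Deviations of same-numbered arrays correlated at -0.057 across probes. With 2 arrays a group, this cannot show whether same-numbered arrays share an origin or a day.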
